A study of Mus musculus with 13 samples.

Results

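The semaphorins, ephrins, Slits and netrins and their receptors were followed in mouse glioblastomas driven by PDGFB or by oncogenic HRas and in normal brain. Members were the protein-coding genes of GENCODE M21 whose symbol marks them as a semaphorin, plexin, neuropilin (Nrp1, Nrp2), Eph receptor, ephrin, Slit, Robo, netrin or Unc5 gene, or as Dcc. The symbols took in 71 of the 55416 genes of the count table. Of these, 2 (Unc50 and Unc5cl) share the letters of Unc5 but are not netrin receptors, and neither had enough reads to be tested.

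In the tumor mice, a lentivirus was delivered to the motor cortex of CNP-Cre animals, in which Cre is made from the Cnp gene of oligodendrocytes. PDGFB tumors (n = 5) carried PDGFB and a short hairpin RNA against p53. RAS tumors (n = 5) carried HRasV12 and a hairpin against p53, so the p53 hairpin and the Cre allele are common to both tumor groups. GFP+ tumor tissue was taken from 5 mice per group at the endpoint. Normal brain samples (n = 3) have the genotype label WT, with no brain region or age, and a protocol shared by all samples speaks of normal tissue trimmed from tumor tissue. The labels do not state that the normal samples come from separate animals, so p-values measure spread between samples. The titles of the normal samples end in M1, F1 and F2, endings that were not used here. For each gene the tests share 1 estimate of spread over all 13 libraries, most of them tumors. Pairs of normal samples differed less (chi-square per degree of freedom 1.69 to 1.83) than pairs of PDGFB tumors (2.29 to 3.98) or RAS tumors (3.31 to 10.9).

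Libraries held 13952738 to 15607754 reads, of which 529162 to 643055 were counted for genes and 84.5% to 87.3% fell in no gene. Genes with an exon opposite an exon of another gene on the other strand made up 17.1% of the annotated genes and held 84.8% of the counted reads, at 187 reads per kilobase of exon against 13.2 in genes with nothing opposite. Whether the count used the strand of the RNA is not given in the sources used here and was not tested. A gene name, level or fold change below therefore stands for the reads deposited under that name, which may not be the RNA of that gene. Trp53, the target of the hairpin, had 0 to 5 reads in each library and could not serve as a check of the knockdown. Reads of Pdgfb numbered 4 to 21 in PDGFB tumors, 1 to 4 in RAS tumors and 3 to 6 in normal brain. Reads of Hras numbered 4 to 16 in PDGFB tumors, 9 to 25 in RAS tumors and 16 to 19 in normal brain, and Hras was not called between RAS tumors and normal brain (log2 fold change -0.50, adjusted p = 0.286 by edgeR's quasi-likelihood test).

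Axon guidance genes steer growing axons and migrating cells. Secreted or membrane-bound cues are read by receptors on the cell surface, which act through small GTPases on the cytoskeleton to attract, repel or detach the cell. Semaphorins signal through plexins, with neuropilins as co-receptors for most secreted semaphorins, ephrins through Eph receptors, Slits through Robo receptors, and netrins through Dcc and Unc5 receptors. In the adult brain the same molecules act at synapses, in blood vessels and in the migration of oligodendrocyte precursors.

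All members together had 300 to 489 reads per library (median 354) and 4734 reads in all. A low-count filter (edgeR's filterByExpr) kept 19 members, holding 2907 of those reads, among 7722 genes tested. These were 4 secreted semaphorins, 3 transmembrane semaphorins, the GPI-anchored Sema7a, 4 plexins, 3 EphA receptors, 2 netrins, Robo2 and Unc5b. No neuropilin, ephrin, EphB receptor or Slit passed, and neither did Dcc. For 3 of the members that passed (Sema3b, Sema3f and Unc5b), only RAS libraries reached the cutoff of the filter, so a level higher in RAS tumors was part of how they came to be tested. In the same way, only normal libraries reached it for Epha4 and Robo2, and only PDGFB libraries for Plxnb1. No normal library reached it for Sema3a, Sema3d, Sema4c, Sema6a, Plxnb2, Plxnd1 or Ntn4. A level higher in tumors was thus part of how these came to be tested. No PDGFB library reached it for Sema7a, and no RAS library for Epha5. With 300 to 489 member reads per library, each count below carries a large counting error, and absence of a call is not a sign of equal levels.

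A member was called at an adjusted p under 0.05 (edgeR's quasi-likelihood test, Benjamini-Hochberg over all genes tested). Against normal brain, PDGFB tumors had 5 of the 19 tested members higher and 6 lower, where 45.3% of all tested genes were called, 20.2% higher and 25.1% lower. In RAS tumors 9 were higher and 4 lower than in normal brain, where 56.2% of all tested genes were called, 26.9% higher and 29.3% lower. Between the tumor types, 3 were higher in PDGFB and 6 higher in RAS tumors, where 32.1% of all tested genes were called, 14.6% higher in PDGFB and 17.4% higher in RAS tumors. Groups did not overlap in 10, 11 and 6 of the 19 members in these comparisons, against 51.4%, 52.1% and 20.3% of all tested genes. The comparisons with normal brain share the 3 normal samples. Median log2 fold changes of the 19 members, beside those of all tested genes, were 0.09 and -0.00 for PDGFB against normal, 1.10 and 0.02 for RAS against normal, and -0.12 and 0.03 for PDGFB against RAS. These counts and medians describe the members that passed the filter and not the 71 members. They are shaped by that filter, which many members passed only through the group or groups where they are high.

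**Figure D1:**
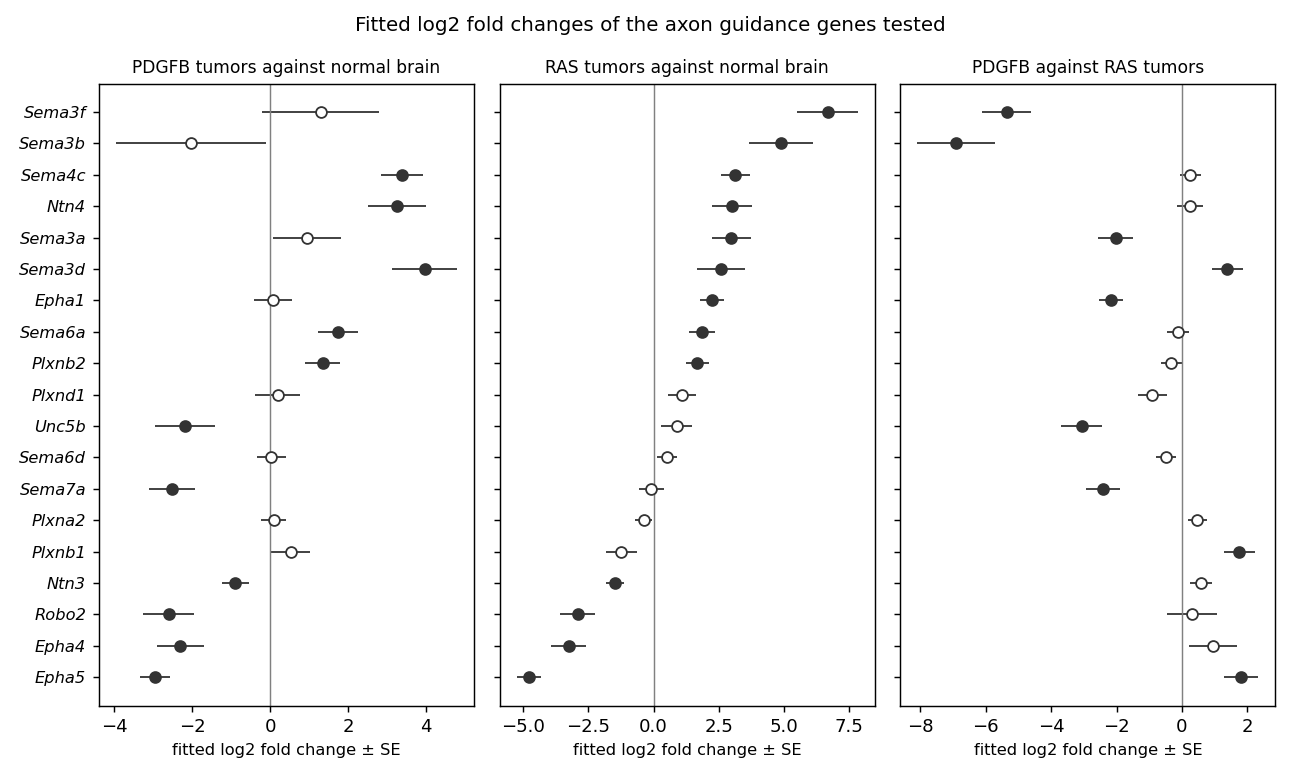
Fitted log2 fold changes (x axis) with their standard errors for the 19 tested axon guidance genes, ordered by the RAS against normal value; filled points have an adjusted p under 0.05 and open points do not. Sema3f, Sema3b, Sema3a and Epha1 lie to the right in RAS against normal and to the left in PDGFB against RAS, while Epha5, Epha4 and Robo2 lie to the left in both comparisons with normal brain.

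The secreted semaphorins are cues released into the tissue that mostly repel axons and also act on vessels and migrating cells. All 4 tested, none of which reached the filter's cutoff in a normal library, were higher in RAS tumors than in normal brain. Between the tumor types 3 were higher in RAS and 1, Sema3d, in PDGFB tumors. Summed over all 7 of them, they reached 51.3 to 151 CPM (reads scaled to the total counted for genes) in RAS tumors, 26.1 to 67.8 CPM in PDGFB tumors and 11.6 to 13.2 CPM in normal brain. In RAS tumors the sum was mainly Sema3a, Sema3b and Sema3f, and in PDGFB tumors mainly Sema3d. In bulk tissue, a change in the number of cells of a type and a change in RNA per cell cannot be told apart.

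Sema3b (ENSMUSG00000057969, chromosome 9, 107597674 to 107609229, minus strand, GRCm38) is a secreted semaphorin known as a candidate tumor suppressor in lung cancer. It had no read in any of the 5 PDGFB tumors. RAS tumors 1 to 5 had 20, 11, 10, 32 and 1 reads, and the normal samples 1, 0 and 0. Thus 4 of 5 RAS tumors stood well above every other library, while RAS tumor 5 was level with a normal sample at 1 read. RAS tumors averaged 24 ± 18.6 CPM (SD, n = 5). The filter kept Sema3b through its RAS libraries. Against PDGFB tumors, Sema3b was at least 24.6-fold higher in RAS tumors, taking 3 reads over the PDGFB group as the limit that a count of 0 allows (adjusted p = 0.00063). These 2 groups did not overlap, but RAS tumor 5 was apart from the PDGFB tumors by only 1 read. Against normal brain the ratio of counts was 41.4, with a 95% counting interval of 7.20 to 1655 (log2 change 4.88 ± 1.22 SE, adjusted p = 0.0037), and the groups overlapped. Without normal sample 1, which held the single normal read, the fitted log2 change was 6.94. Such fitted values depend on the prior count when a group is near 0.

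Sema3f (ENSMUSG00000034684, chromosome 9, 107681500 to 107710475, minus strand), a neighbor of Sema3b and also a candidate lung tumor suppressor, which signals through Nrp2, was likewise concentrated in RAS tumors. Its RAS tumors had 16, 8, 18, 14 and 6 reads. Of the PDGFB tumors only number 5 had a read, and the normal samples had none. All 5 RAS tumors were therefore above all 8 other libraries, at 20.3 ± 8.89 CPM (SD, n = 5). The filter kept Sema3f through its RAS libraries. Sema3f was at least 11.5-fold higher in RAS tumors than in normal brain (adjusted p = 0.000158). Against PDGFB tumors the ratio of counts was 61.8, with a 95% counting interval of 10.7 to 2479 (adjusted p = 7.68e-05). The fitted log2 change of PDGFB against RAS was -5.36, and -6.66 without PDGFB tumor 5. Neither Sema3b nor Sema3f has an annotated gene on the opposite strand.

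Sema3b and Sema3f lie 72270 bp apart on the same strand, with 3 tested genes between them. Gnai2, an inhibitory G protein subunit, was above normal brain in RAS tumors (log2 change 1.89 ± 0.27 SE, adjusted p = 1.69e-05) and in PDGFB tumors (0.85 ± 0.26, adjusted p = 0.0144), and lower in PDGFB than in RAS tumors (-1.04 ± 0.21, adjusted p = 0.00103). Gnat1, a phototransduction G protein, was higher in PDGFB than in RAS tumors (2.94 ± 0.59, adjusted p = 0.00117) and than in normal brain (4.33 ± 0.89, adjusted p = 0.000832). The amino acid transporter Slc38a3 was also higher in PDGFB than in RAS tumors (1.96 ± 0.48, adjusted p = 0.00469). Between the tumor types, Gnai2 thus had the direction of Sema3b and Sema3f, and the other pair had the opposite one.

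Sema3a (ENSMUSG00000028883, chromosome 5, 13125414 to 13602565, plus strand), the growth cone collapsing cue read by Nrp1 and A-type plexins, was highest in RAS tumors, with 25, 16, 7, 9 and 23 reads. PDGFB tumors had 4, 10, 0, 5 and 2 reads, and normal samples 2, 1 and 2. The RAS libraries stood above all normal samples and overlapped the PDGFB range through PDGFB tumor 2. Sema3a was 7.91-fold higher in RAS tumors than in normal brain (log2 change 2.98 ± 0.76 SE, adjusted p = 0.00273) and 4.08-fold higher than in PDGFB tumors (adjusted p = 0.00719). Between PDGFB tumors and normal brain it was not called (log2 change 0.95, adjusted p = 0.393).

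Sema3d (ENSMUSG00000040254, chromosome 5, 12383385 to 12588948, plus strand), a cue known from neural crest and vessel patterning, had its highest counts in PDGFB tumors. They had 19, 18, 11, 25 and 35 reads, RAS tumors 11, 5, 16, 4 and 1, and normal samples 2, 0 and 1. Each PDGFB tumor was above each normal sample, while the RAS tumors spread across both. The ratio of counts of PDGFB tumors to normal brain was 20.2, with a 95% counting interval of 6.73 to 99.4 (adjusted p = 0.00088). RAS tumors were also above normal brain (ratio of counts 6.89, interval 2.18 to 34.9, adjusted p = 0.0241), with overlap. PDGFB exceeded RAS tumors 2.62-fold, with overlap (log2 change 1.39 ± 0.48 SE, adjusted p = 0.0349). The call against RAS tumors was lost without PDGFB tumor 4 or 5 (adjusted p = 0.0678 and 0.105) and without RAS tumor 4 or 5 (0.0809 and 0.0668). The call of RAS tumors against normal brain was lost without RAS tumor 3 (0.0520) and without normal sample 2 or 3 (0.0738 and 0.0710), and also by limma-voom (log2 change 2.05, adjusted p = 0.117). Without normal sample 1 the fitted log2 changes against normal were 4.91 in PDGFB and 3.53 in RAS tumors, in place of 3.97 and 2.58.

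**Figure D2:**
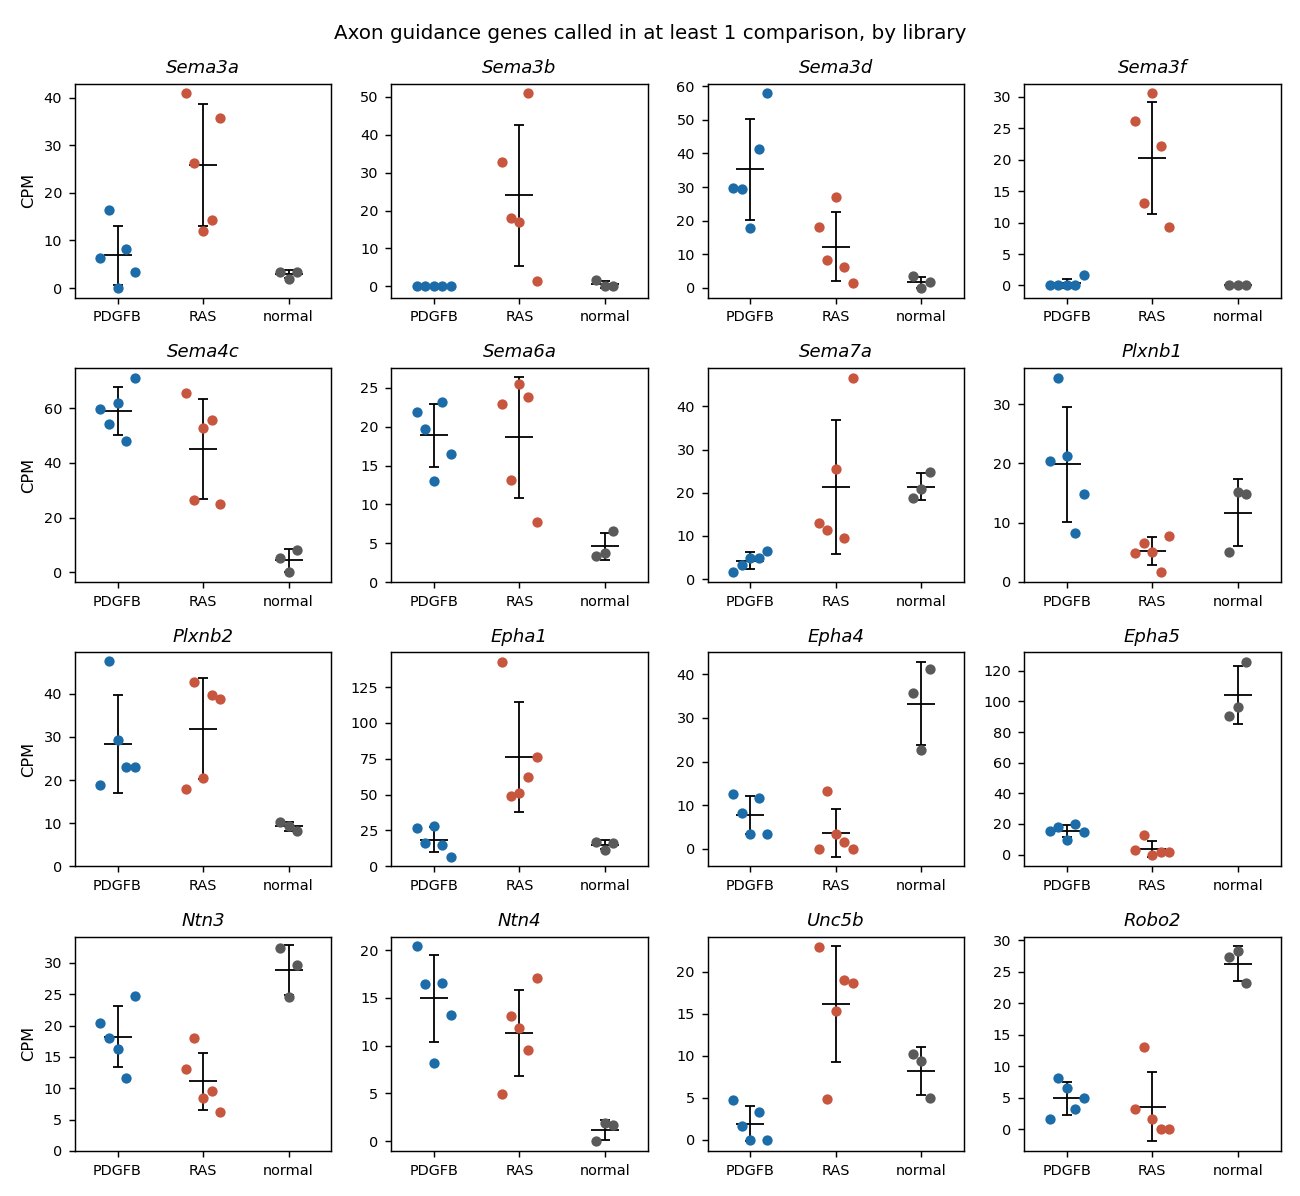
CPM of each library (points), with the mean and SD of the group (lines), for the 16 axon guidance genes called in at least 1 comparison, on linear axes that differ between panels. Sema3b and Sema3f are at or near 0 outside RAS tumors, Sema4c, Sema6a, Plxnb2 and Ntn4 are higher in both tumor types than in normal brain, and Epha4, Epha5 and Robo2 are lower in both.

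Transmembrane semaphorins signal between neighboring cells. Of the 12, Sema4c and Sema6a were higher in both tumor types than in normal brain and were not called between the tumors. Sema6d, a ligand of plexin A1, was also tested and was called in no comparison. Their sum, 124 to 149 CPM in PDGFB tumors and 96.4 to 144 CPM in RAS tumors, ranged from 68.0 to 109 CPM in normal brain.

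Sema4c (ENSMUSG00000026121, chromosome 1, 36548639 to 36558349, minus strand), a ligand of plexin B2, had the highest level per exon length of the tested members in PDGFB tumors, at 12.8 ± 1.89 CPM per kilobase of exon (SD, n = 5), and the second highest in RAS tumors, at 9.79 ± 4.0. PDGFB tumors had 38, 33, 38, 29 and 43 reads, RAS tumors 40, 16, 31, 35 and 16, and normal samples 3, 0 and 5. All 10 tumors were above all 3 normal samples. The fold over normal brain was 10.5 in PDGFB tumors (log2 change 3.39 ± 0.53 SE, adjusted p = 8.31e-05) and 8.81 in RAS tumors (3.14 ± 0.54, adjusted p = 0.000109). Normal sample 3 held most of the normal reads, and without it the log2 changes were 4.13 and 3.88. PDGFB and RAS tumors differed by 0.25 ± 0.32 (adjusted p = 0.578). An exon of Sema4c overlaps D430040D24Rik on the other strand by 334 bp. That gene was also higher in PDGFB tumors (log2 change 1.23, adjusted p = 0.0342) and in RAS tumors (2.08, adjusted p = 0.000735) than in normal brain, and its part in the reads of Sema4c was not tested.

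Sema6a (ENSMUSG00000019647, chromosome 18, 47235598 to 47368870, minus strand), a semaphorin of oligodendrocyte and cerebellar development, had 14, 12, 8, 14 and 10 reads in PDGFB tumors and 14, 8, 15, 15 and 5 in RAS tumors. The normal samples had 2, 2 and 4 reads, below every tumor. It was 3.36-fold higher than normal brain in PDGFB tumors (adjusted p = 0.00967) and 3.64-fold higher in RAS tumors (adjusted p = 0.00468). The tumor types differed by -0.12 ± 0.34 (adjusted p = 0.822), and no gene is annotated opposite Sema6a. Sema6d, with 7 to 21 reads per library in every group, changed by 0.03, 0.52 and -0.49 on the log2 scale in the 3 comparisons.

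Sema7a (ENSMUSG00000038264, chromosome 9, 57940112 to 57962865, plus strand), which is held on the membrane by a lipid anchor and binds plexin C1 and integrins, was low in PDGFB tumors alone. It had 1, 2, 3, 3 and 4 reads there, 8, 7, 15, 6 and 30 in RAS tumors, and 11, 11 and 15 in normal samples. No PDGFB tumor reached the lowest library of the other groups. Sema7a in PDGFB tumors was 5.71-fold below normal brain (log2 change -2.51 ± 0.58 SE, adjusted p = 0.00202) and 5.37-fold lower than in RAS tumors (adjusted p = 0.00195). RAS tumors and normal brain differed by -0.09 ± 0.48 (adjusted p = 0.891), with a wide spread among RAS tumors set by number 5.

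Of the 4 tested plexins, the receptors of the semaphorins, Plxnb2 was higher in both tumor types than in normal brain and Plxnb1 differed between the tumors. Summed over all 9, they ranged from 117 to 194 CPM in PDGFB tumors, 95.1 to 151 CPM in RAS tumors and 109 to 125 CPM in normal brain. Plxna2, with 343 reads the member with the most reads, was called in no comparison. It had 27 to 47 reads in PDGFB tumors, 11 to 37 in RAS tumors and 19 to 28 in normal samples, and the 3 log2 changes were 0.09, -0.38 and 0.47. Without RAS tumor 4 the last became 0.77 (adjusted p = 0.0437). Plxnd1, a receptor of Sema3e in vessels, was not called either (RAS against normal 1.10 ± 0.54, adjusted p = 0.0943), though it was without normal sample 2 (1.68, adjusted p = 0.0463).

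Plxnb2 (ENSMUSG00000036606, chromosome 15, 89155549 to 89180788, minus strand), the receptor of Sema4c, was higher in both tumor types, as its ligand was. PDGFB tumors had 12, 29, 18, 14 and 14 reads, RAS tumors 11, 26, 12, 25 and 25, and normal samples 6, 5 and 5. All tumors were above all normal samples. The fold over normal brain was 2.56 in PDGFB tumors (log2 change 1.35 ± 0.45 SE, adjusted p = 0.020) and 3.19 in RAS tumors (1.67 ± 0.44, adjusted p = 0.00387). The PDGFB call was lost without PDGFB tumor 2 (adjusted p = 0.0515) and without normal sample 3 (0.0741), and also by limma-voom (0.0737). Plxnb1 (ENSMUSG00000053646, chromosome 9, 109095389 to 109119917, plus strand), a receptor of Sema4d, separated the tumor types instead. It had 13, 21, 13, 5 and 9 reads in PDGFB tumors, 3, 4, 3, 1 and 5 in RAS tumors and 3, 8 and 9 in normal samples. The tumor types did not overlap in CPM, but in reads they met. PDGFB tumor 4 and RAS tumor 5 each had 5 reads (8.26 and 7.78 CPM), apart only by library total. The filter kept Plxnb1 through its PDGFB libraries. PDGFB exceeded RAS tumors 3.37-fold (log2 change 1.75 ± 0.48 SE, adjusted p = 0.00951), and neither tumor type was called against normal brain. Gm7628, whose exon overlaps Plxnb1 on the other strand by 257 bp, was higher in PDGFB than in RAS tumors as well (1.88, adjusted p = 0.0312).

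Eph receptors are tyrosine kinases that bind ephrins on touching cells. The 9 EphA receptors summed to 24.8 to 58.0 CPM in PDGFB tumors, 64.5 to 172 CPM in RAS tumors and 157 to 202 CPM in normal brain, and their make-up differed between groups. Epha1 made up most of the RAS sum, while Epha5 and Epha4 made up most of the normal sum.

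Epha1 (ENSMUSG00000029859, chromosome 6, 42358487 to 42373268, minus strand) had 87, 30, 30, 39 and 49 reads in RAS tumors, 17, 10, 17, 9 and 4 in PDGFB tumors and 10, 6 and 10 in normal samples. Every RAS tumor was above every other library, and the PDGFB and normal libraries overlapped. At 19.4 ± 9.82 CPM per kilobase of exon (SD, n = 5), it had the highest level per exon length of the tested members in RAS tumors. It was 4.69-fold higher in RAS tumors than in normal brain (log2 change 2.23 ± 0.45 SE, adjusted p = 0.00048) and 4.48-fold higher than in PDGFB tumors (adjusted p = 0.000258). Between PDGFB tumors and normal brain the change was 0.07 ± 0.49 (adjusted p = 0.922). An exon of Epha1 overlaps Zyx on the other strand by 236 bp. Under the name of Zyx, which encodes the focal adhesion protein zyxin, 44, 19, 22, 39 and 21 reads were counted in RAS tumors. There were 9, 8, 3, 11 and 7 in PDGFB tumors and 0, 1 and 1 in normal samples. The log2 change of Zyx was 5.03 ± 0.65 SE in RAS tumors against normal brain (adjusted p = 7.67e-06) and -2.05 ± 0.36 in PDGFB against RAS tumors (adjusted p = 0.000351). In PDGFB tumors against normal brain Zyx was also higher (2.98 ± 0.77, adjusted p = 0.00428), where Epha1 was not called. Epha1 and Zyx thus had the same direction between the tumor types, and reads of one counted for the other cannot be told apart without the strand.

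**Figure D3:**
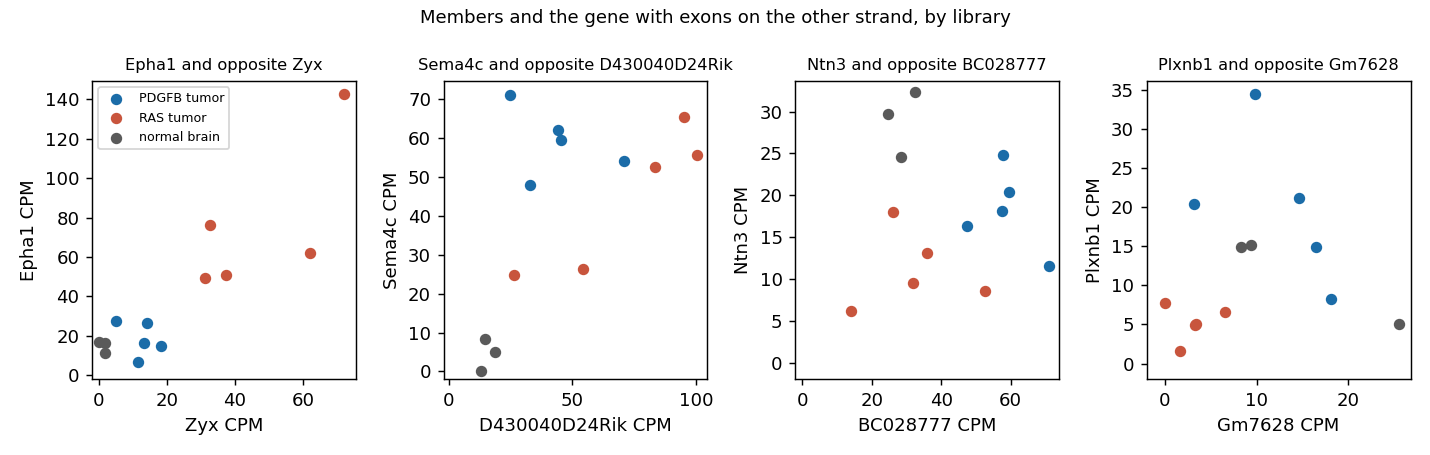
CPM of the 4 tested axon guidance genes that overlap an exon on the other strand (y axis) against CPM of the overlapping gene (x axis), with 1 point per library. For Epha1 and Zyx the 5 RAS tumors lie above and to the right of all other libraries, and for Ntn3 and BC028777 the 2 highest Ntn3 values are those of normal samples.

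Epha5 (ENSMUSG00000029245, chromosome 5, 84054761 to 84417382, minus strand), a receptor of neurons for ephrin-A ligands, had the largest fitted fall from normal brain of the tested members. The normal samples had 53, 51 and 76 reads, PDGFB tumors 10, 11, 6, 12 and 9, and RAS tumors 2, 8, 0, 1 and 1. The 3 groups had means of 104 ± 18.9 CPM (SD, n = 3), 15.7 ± 3.82 (SD, n = 5) and 3.91 ± 5.28 (SD, n = 5), with all tumors below all normal samples. Epha5 was 7.75-fold lower in PDGFB tumors (log2 change -2.95 ± 0.40 SE, adjusted p = 1.99e-05) and 27.3-fold lower in RAS tumors than in normal brain (-4.77 ± 0.47, adjusted p = 5.88e-07). It was also 3.52-fold higher in PDGFB than in RAS tumors (adjusted p = 0.0133), with overlap through RAS tumor 2. Epha4 (ENSMUSG00000026235, chromosome 1, 77367185 to 77515088, minus strand), which binds ephrins of both classes, had 21, 12 and 25 reads in normal samples, 8, 5, 2, 7 and 2 in PDGFB tumors and 0, 8, 2, 1 and 0 in RAS tumors. It was lower by 4.93-fold in PDGFB tumors (adjusted p = 0.00484) and 9.52-fold lower in RAS tumors (adjusted p = 0.000515) than in normal brain, with no overlap.

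Robo2 (ENSMUSG00000052516, chromosome 16, 73891839 to 74411825, minus strand), a Slit receptor of axons, was likewise low in both tumor types. It had 16, 15 and 14 reads in normal samples, 1, 5, 4, 2 and 3 in PDGFB tumors and 2, 8, 1, 0 and 0 in RAS tumors. All tumors were below all normal samples, 6.08-fold in PDGFB (log2 change -2.60 ± 0.64 SE, adjusted p = 0.00328) and 7.52-fold in RAS tumors (-2.91 ± 0.67, adjusted p = 0.00137). The filter kept Epha4 and Robo2 through their normal libraries. RAS tumor 2 held 8 reads each of Epha4, Epha5 and Robo2, above the other RAS tumors in all 3 genes. Without it the log2 changes of RAS tumors against normal brain were -4.64 for Epha4, -5.92 for Epha5 and -4.30 for Robo2, and those of PDGFB against RAS tumors were 2.97 for Epha5 and 2.34 for Epha4 (adjusted p = 0.0213, not called with all libraries at 0.335). The astrocyte markers summed to 657 CPM in RAS tumor 2 and to 117 to 232 CPM in the other RAS tumors. Mature oligodendrocyte markers summed to 921 CPM in it and to 599 to 754 CPM in the others. Neuron markers, mostly Nefm, summed to 3998 CPM in it and to 4118 to 8560 CPM in the others. The part of these cells in its reads of the 3 genes was not tested.

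Against normal brain, neuron markers were lower in the tumors, as Epha4, Epha5 and Robo2 were. Between the tumor types they did not move together. In PDGFB against RAS tumors 3 neuron markers were lower and 0 higher, while Epha5 was higher in PDGFB tumors. Of 12 neuron markers, 12 were lower in PDGFB and 9 lower in RAS tumors than in normal brain, and none was at 0 in any group. Their summed level was 259 to 676 CPM in PDGFB tumors, 3998 to 8560 CPM in RAS tumors and 5660 to 6059 CPM in normal brain, where Nefm alone gave most of the RAS sum. Without Nefm it was 105 to 331, 285 to 530 and 1694 to 1752 CPM. Mature oligodendrocyte markers were lower as well, with 4 of 6 tested in PDGFB and 5 of 6 in RAS tumors, from 1599 to 2329 CPM in normal brain to 808 to 892 CPM and 599 to 921 CPM, and Opalin was at 0 in RAS tumors. Cnp, the gene that drives Cre, gave most of the tumor sums, and without it they were 1015 to 1610 CPM in normal brain, 137 to 225 CPM in PDGFB and 76.9 to 336 CPM in RAS tumors. Astrocyte markers summed to 620 to 795 CPM in normal brain, 212 to 512 CPM in PDGFB and 117 to 657 CPM in RAS tumors, with 3 of 7 tested lower in each tumor type. The part of these cell types in the lower levels was not tested.

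Netrins split in their direction. Netrin 4 and netrin 3 are secreted laminin-related proteins, and the former is known from basement membranes. Ntn4 (ENSMUSG00000020019, chromosome 10, 93640681 to 93747207, plus strand) had 13, 10, 5, 10 and 8 reads in PDGFB tumors, 3, 8, 7, 6 and 11 in RAS tumors and 0, 1 and 1 in normal samples, so every tumor exceeded every normal sample. The ratio of counts to normal brain was 12.9 in PDGFB tumors (95% counting interval 3.37 to 110, adjusted p = 0.00175) and 9.78 in RAS tumors (2.51 to 83.9, adjusted p = 0.00267). Ntn3 (ENSMUSG00000117406, chromosome 17, 24203848 to 24209531, minus strand) had 19, 13 and 18 reads in normal samples, 13, 11, 10, 7 and 15 in PDGFB tumors and 8, 11, 5, 6 and 4 in RAS tumors. RAS tumors lay below normal brain without overlap, 2.78-fold (log2 change -1.47 ± 0.36 SE, adjusted p = 0.00212). For PDGFB tumors the 1.86-fold lower level (-0.89 ± 0.34, adjusted p = 0.0413) overlapped the normal samples and was lost under 16 of 21 alternatives, with adjusted p-values from 0.0270 to 0.249. Leaving out any 1 normal sample (adjusted p = 0.0866 to 0.190), any of PDGFB tumors 1 to 4 (0.0536 to 0.0852) or RAS tumor 1, 3, 4 or 5 (0.0524 to 0.0730) was enough. Ntn3 overlaps BC028777 on the other strand by 139 bp, which was not called in any comparison (adjusted p = 0.0571, 0.875 and 0.0503).

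Unc5b (ENSMUSG00000020099, chromosome 10, 60762593 to 60831581, minus strand), a netrin receptor of vessels and neurons, had 14, 3, 9, 12 and 12 reads in RAS tumors, 3, 1, 0, 2 and 0 in PDGFB tumors and 6, 5 and 3 in normal samples. In CPM, PDGFB tumors were below both other groups without overlap, but in reads the groups met. PDGFB tumor 1, RAS tumor 2 and normal sample 3 each had 3 reads (4.71, 4.92 and 4.96 CPM), apart only by library total. PDGFB tumors were 8.37-fold lower than RAS tumors (log2 change -3.06 ± 0.63 SE, adjusted p = 0.00135) and 4.53-fold lower than normal brain (-2.18 ± 0.78, adjusted p = 0.0293). The call against normal brain was lost without PDGFB tumor 2, 3 or 5 (adjusted p = 0.0507, 0.0558 and 0.0569) and without normal sample 1 or 2 (0.122 and 0.100). RAS tumors were not called against normal brain (0.88, adjusted p = 0.223). The filter kept Unc5b through its RAS libraries.

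Between the tumor types, markers of immune and stromal cells had the direction of the members higher in RAS tumors (Sema3a, Sema3b, Sema3f, Sema7a, Epha1 and Unc5b). Of these, Sema7a and Unc5b were not called in RAS tumors against normal brain. By library the match was mixed. RAS tumor 5 had the highest macrophage and fibroblast sums (865 and 414 CPM). Among RAS tumors it had the fewest reads of Sema3b (1) and Sema3f (6) and the most of Sema7a (30). Macrophage and microglia markers summed to 557 to 865 CPM in RAS tumors, 273 to 362 CPM in PDGFB tumors and 276 to 284 CPM in normal brain, and 5 of 6 tested were higher in RAS than in PDGFB tumors. Csf1r had the highest level of that list, and without it the sums were 309 to 546, 87.0 to 147 and 26.5 to 41.3 CPM. In the same order of groups, fibroblast and meninges markers summed to 96.8 to 414, 11.5 to 49.6 and 11.3 to 16.5 CPM, with 3 of 3 tested higher in RAS tumors. Endothelial markers, of which only 1 was tested, summed in that order to 49.2 to 78.6, 11.6 to 55.5 and 11.6 to 18.7 CPM. At 0 in normal brain were Ptprc of the macrophage list, Cldn5 and Cd93 of the endothelial list and Lum of the fibroblast list. Oligodendrocyte precursor markers had the order of groups of Sema3d, at 617 to 871 CPM in PDGFB tumors, 178 to 333 CPM in RAS tumors and 95.4 to 106 CPM in normal brain. Of these markers, 7 of 8 were higher in PDGFB tumors than in each other group. The part of these cells in the members' levels was not tested.

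Promoter sequence is shown for 2 members, Sema4c as the one with the highest level per exon length in PDGFB tumors and Epha5 as the one with the largest fall. Each window is the 250 bases before the gene's start in RefSeq (GRCm38.p6), 5′ to 3′ on the gene's strand, at chr1:36558382-36558631 (minus strand) for Sema4c and chr5:84417383-84417632 (minus strand) for Epha5. Capitals mark a match to TGANTCA, the letters of the AP-1 site, which acts downstream of Ras signaling.
Sema4c: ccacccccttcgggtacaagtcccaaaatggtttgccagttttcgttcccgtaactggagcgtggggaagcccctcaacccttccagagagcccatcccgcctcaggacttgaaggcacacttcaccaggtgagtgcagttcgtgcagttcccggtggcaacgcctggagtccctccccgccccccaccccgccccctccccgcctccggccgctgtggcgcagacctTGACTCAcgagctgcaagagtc
Epha5: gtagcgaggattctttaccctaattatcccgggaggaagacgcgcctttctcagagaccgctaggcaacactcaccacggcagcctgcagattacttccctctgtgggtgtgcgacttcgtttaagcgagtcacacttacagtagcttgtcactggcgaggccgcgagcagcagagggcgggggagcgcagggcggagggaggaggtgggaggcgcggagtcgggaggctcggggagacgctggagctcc
The Sema4c window had an AP-1 match starting 22 bases before the start, and the Epha5 window had none. Windows were found for 61 of 71 members (77 windows), and Sema3b and Sema3f have no entry. Both strands were searched, and overlaps between motifs were allowed. AP-1 letters stood in 3 of 77 member windows (3.90%) and in 6.75% of all 32851 windows. The cyclic AMP element TGACGTCA stood in 1 (1.30% against 1.55%), that of Epha2, and the E-box CAGCTG in 12 (15.6% against 13%), Robo2 and Sema7a among them. A match is a run of letters and not a site shown to be bound.

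**Figure D4:**
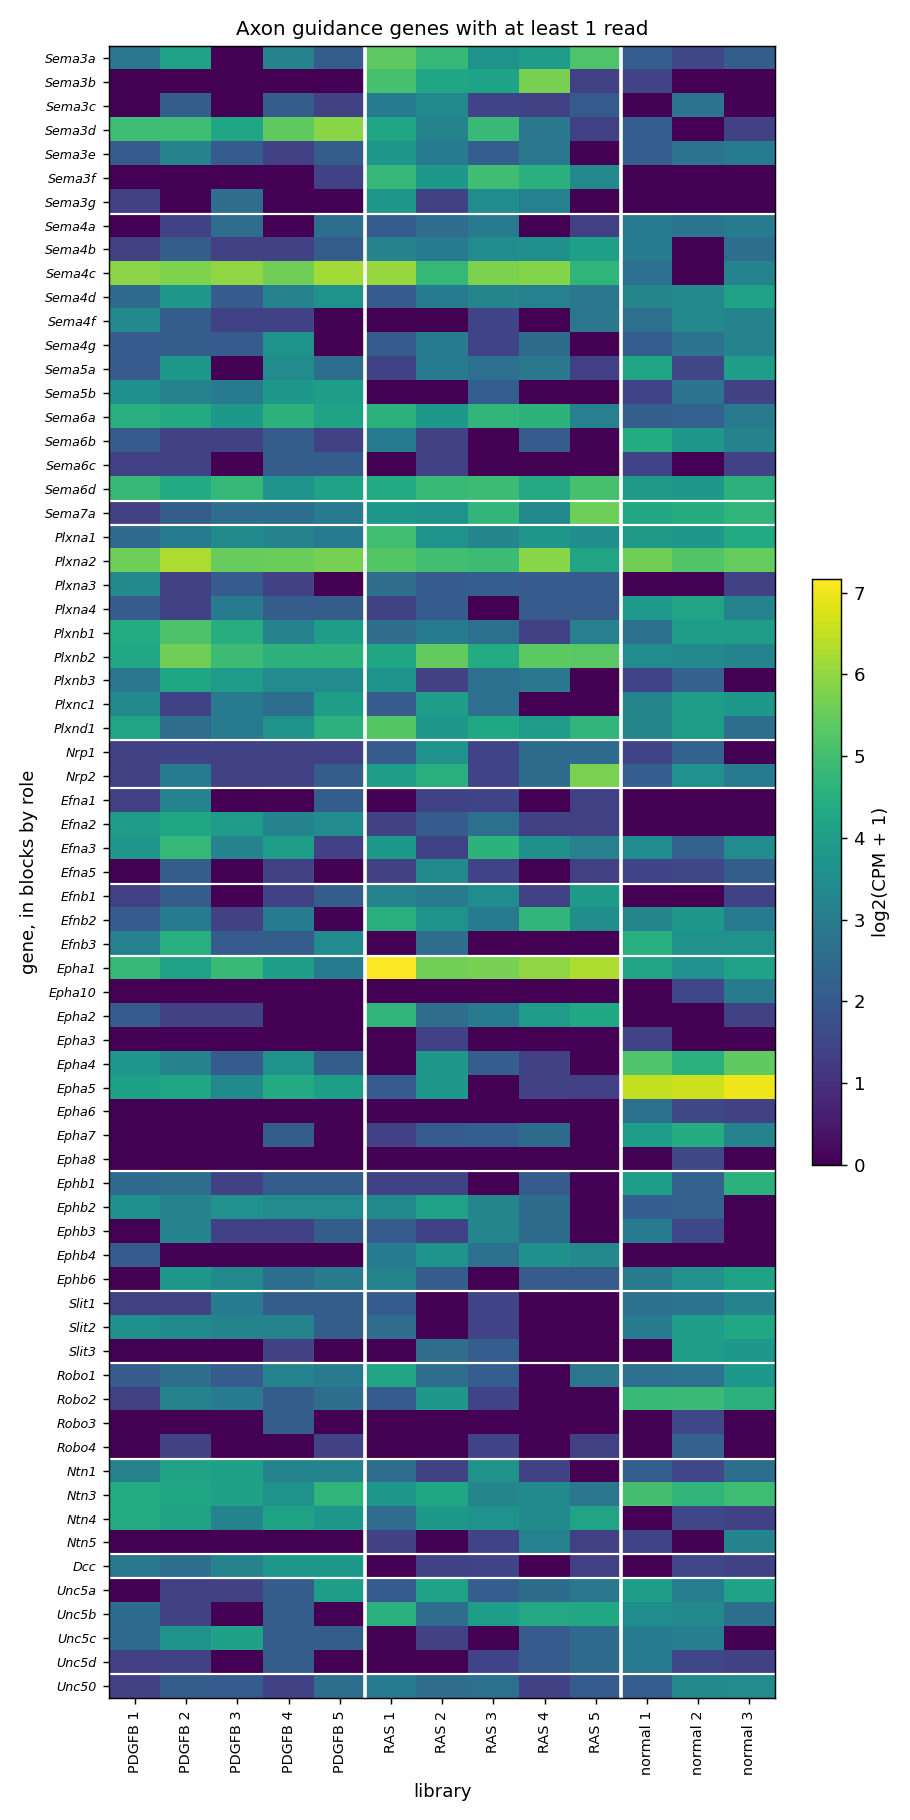
Level of the 69 axon guidance genes with at least 1 read (rows, in blocks by role) in each library (columns), as log2(CPM + 1). Epha1 is brightest in RAS tumors, Epha5 in normal brain and Sema4c in both tumor types, and most of the other rows are dark, at a few reads.

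The other 52 members were not tested. Efna4 and Unc5cl had no read in any library. With at least 50 reads in all, 15 of the 52 came closest: Plxna1 (95), Efna3 (88), Nrp2 (80), Efnb2 (74), Sema4d (65), Ephb2 (59), Plxnc1 (58), Unc5a (57), Efnb3 (57), Plxnb3 (54), Ntn1 (53), Sema5a, Ephb6 and Slit2 (52 each) and Robo1 (50). Their values are few reads, and several still had groups that do not overlap. Nrp2, the co-receptor for Sema3f, had 9, 13, 1, 3 and 33 reads in RAS tumors, 1, 4, 1, 1 and 2 in PDGFB tumors and 2, 6 and 4 in normal samples, so that RAS tumor 5 held 33 of its 80 reads. Efnb2, an ephrin of arteries and neurons, had 13, 7, 4, 16 and 7 reads in RAS tumors, 2, 4, 1, 4 and 0 in PDGFB tumors and 5, 7 and 4 in normal samples. Efnb3, a midline cue of the spinal cord, had 13, 6 and 7 reads in normal samples and 5, 13, 2, 2 and 6 in PDGFB tumors, and among RAS tumors only number 2 had any (3). Slit2, the ligand of Robo receptors, had 7, 6, 5, 5 and 2 reads in PDGFB tumors, 4, 8 and 11 in normal samples, and 3 and 1 in RAS tumors 1 and 3 with none in the others. Ephb2 had 5 to 7 reads in each PDGFB tumor, 0 to 10 in RAS tumors and 0 to 2 in normal samples.

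A looser filter (1 CPM in 5 libraries) tested 64 members among 16558 genes, 45 of them only there. With 3 normal samples, a member with reads in normal brain alone could not pass it, while one with reads in all tumors of 1 type could. A level higher in tumors was thus again part of how some members came to be tested, and it shapes the counts and calls at this filter. In all, 8 members were above and 11 below normal brain in PDGFB tumors (12.0% and 12.9% of all genes at that filter). RAS tumors had 14 higher and 11 lower (16.7% and 17.6%), and between the tumors 8 were higher in PDGFB and 12 in RAS (8.70% and 8.83%). Among members with at least 50 reads, this filter called Efnb2 (log2 change -2.08, adjusted p = 0.00984) and Nrp2 (-2.69, adjusted p = 0.00695) higher in RAS than in PDGFB tumors. Slit2 was lower in RAS tumors than in normal brain (-3.22, adjusted p = 0.00159) and than in PDGFB tumors (adjusted p = 0.0229). Efnb3 was lower in RAS tumors than in normal brain (ratio of counts 15.5, 95% counting interval 4.75 to 80.1, adjusted p = 0.00108) and than in PDGFB tumors (ratio 9.37, interval 2.89 to 48.2, adjusted p = 0.0149). Plxnb3 was higher in PDGFB tumors than in normal brain (ratio 6.73, interval 2.13 to 34.2, adjusted p = 0.0336).

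Members with fewer reads, chosen here after their values were seen, gave sharp but thin contrasts at the looser filter. Efna2, an ephrin that binds EphA receptors, had 9, 11, 9, 5 and 6 reads in PDGFB tumors, 1, 2, 3, 1 and 1 in RAS tumors and none in normal samples. It was at least 7.48-fold higher in PDGFB tumors than in normal brain (adjusted p = 0.000334), and the 3 groups did not overlap. Dcc, the netrin receptor on chromosome 18, had 4, 3, 5, 8 and 8 reads in PDGFB tumors and no more than 1 in any other library (ratio of PDGFB to RAS counts 9.37, 95% counting interval 2.89 to 48.2, adjusted p = 0.00642). Sema5b had 7, 5, 4, 8 and 9 reads in PDGFB tumors, and only number 3 of the RAS tumors had any (ratio 16.6, interval 4.24 to 142, adjusted p = 0.00182). In the other direction, Epha2, a receptor known from gliomas, had 15, 3, 4, 9 and 12 reads in RAS tumors and 0 to 2 in all others, and was higher in RAS than in PDGFB tumors (log2 change -3.28 for PDGFB against RAS, adjusted p = 0.00151). Ephb4, the receptor of Efnb2, had 4, 7, 3, 7 and 6 reads in RAS tumors, 2 in PDGFB tumor 1 and none elsewhere (ratio 13.5, interval 3.38 to 117, adjusted p = 0.00492).

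Other genes of the pathway, from lists of membrane or secreted proteins and of intracellular effectors, showed both directions. Of 8 tested among 15 further membrane or secreted guidance proteins, 1 was above and 3 below normal brain in PDGFB tumors, 2 above and 1 below it in RAS tumors, and 2 higher and 3 lower in PDGFB than in RAS tumors. Of 27 tested among 50 intracellular effectors, the counts were 5 and 7, 6 and 6, and 2 and 5. Of all tested genes, 20.2% were higher and 25.1% lower in the first of these comparisons, 26.9% and 29.3% in the second, and 14.6% and 17.4% between the tumor types. Dpysl3, a collapsin response mediator that acts downstream of Sema3a, was higher in PDGFB (log2 change 2.69 ± 0.37 SE, adjusted p = 2.32e-05) and RAS tumors (2.71 ± 0.37, adjusted p = 1.15e-05). The Rac activator Dock1 and Rock1 were also higher in both, from few reads in normal brain (0 to 2 and 0 to 1 per sample). Rhoa, with an exon opposite Tcta and Gm37401, was higher in RAS tumors (2.02 ± 0.28, adjusted p = 1.48e-05) and in PDGFB tumors (1.23 ± 0.28, adjusted p = 0.00173). Lower in both, with the larger changes, were 3 neuronal effectors, the Rac regulator Kalrn (-3.40 and -3.27), the Rac inhibitor Chn1 that acts in EphA4 signaling (-3.37 and -3.13), and the ephexin Ngef (-3.65 and -2.19). Pak1 (-1.32 and -1.31) and Srgap3 (-1.11 and -1.27) were also lower in both. Mical2, an enzyme that oxidizes actin, was lower in PDGFB tumors (-3.43 ± 0.54, adjusted p = 8.07e-05). Lrrc4c, a netrin-G ligand of synapses, was lower in RAS tumors (-3.38 ± 0.62, adjusted p = 0.000182) and in PDGFB tumors (-1.62 ± 0.51, adjusted p = 0.0153). Between the tumor types, Dscam, a netrin receptor, was higher in PDGFB (2.75 ± 0.41, adjusted p = 8.42e-05), as were Enah and Fyn (1.63 and 0.80). Dscam was also above normal brain in PDGFB tumors (1.73 ± 0.45, adjusted p = 0.00431). Mical2 was higher in RAS (-2.79 ± 0.51, adjusted p = 0.000545), as were Rgmb, Nrcam and Rasa1 (-2.09, -1.90 and -1.71). Chn1, Ngef, Srgap3, Dscam and Rasa1 also have an exon opposite an exon of another gene (Chn1os1 and Chn1os3, Neu2, Gm44081, AC154538.1 and AC154538.2, and Ccnh).

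The overlap of exons on the other strand touched 15 of the 71 members, and 4 of the 19 tested (Sema4c, Plxnb1, Epha1 and Ntn3). A further 16 members, 6 of them tested, lie opposite an intron, and 40, of which 9 were tested, lie opposite no gene. Members opposite an exon held 12.9 reads per kilobase, those opposite an intron 6.90 and those opposite nothing 8.36, where all genes had 187, 9.84 and 13.2. Reads of members were 27.3% opposite an exon, 27.6% opposite an intron and 45.1% opposite nothing. The called members opposite no gene were Sema3b, Sema3f, Sema6a, Sema7a, Plxnb2, Epha4 and Unc5b. The lack of an annotated gene opposite does not show that the reads under these names are their own RNA, because the strand setting of the count is not known.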

How the data were processed

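Polyadenylated RNA was sequenced from 13 tissue samples (5 PDGFB, 5 RAS, 3 normal). It was extracted with Trizol and made into libraries with a TruSeq RNA kit, per the labels. The deposited values are raw counts of reads per Ensembl gene, not normalized by the authors. The tools listed, per the submitters' processing notes, include STAR (2.7.9a) and fastp (0.22.0), with GRCm38 as the build. The annotation and strand setting of the count are not given in the sources used here. Summary entries for reads in no gene were kept out of library sizes and tests. Groups came from titles and tissue labels. The titles of normal samples 1 to 3 are NBT-M1, NBT-F1 and MBT-F2. That of sample 3 starts with MBT and not NBT, and its tissue label put it in the group. The endings of these titles were not used.

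Identifiers were matched to GENCODE M21 (52135 of 55416 genes), which gave symbols, positions and exons on the other strand. Tests used edgeR (4.0.16, under R 4.3.3): filterByExpr (minimum count 10, minimum total 15), TMM factors, a quasi-likelihood fit of all 13 libraries with 1 coefficient per group, two-sided, Benjamini-Hochberg over 7722 genes. CPM used the total counted for genes. Fold changes are fitted values. Where a group had no read, a lower bound was taken from 3 reads over that group, and with 1 to 3 reads the ratio of counts has an exact 95% binomial interval; both cover counting error only.

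Members, lists and tests were chosen with earlier results of these data known. Sema3b and each called member are named, and untested members from 50 reads. Library values are given for members with at least 10 CPM in the highest group; other genes of the pathway are the 4 largest changes per comparison and direction from 10 CPM. Not every result that this rule would name is reported here. Lower members were named after their values were seen. Alternatives were other scaling factors (median of ratios, library totals), no filter, a looser filter, DESeq2 1.42.0, limma-voom (limma 3.58.1), 2 groups alone, an adjusted p under 0.01, genes with no opposite exon, each library left out, and a block for replicate number between the tumor types. The sequences used here were promoter windows and GENCODE M21 transcripts, with no whole genome and no protein sequences.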

Additional observations from a re-analysis of the deposited data

Results flagged for a closer look

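In 6 of 38 groups of 5 tumors (19 tested members in both tumor types), 1 library lay apart from the other 4 by Dixon's criterion. Its chance rate of about 1 group in 20 holds for normally distributed values and not for counts near 0. A lone read in a group otherwise at 0 always meets the criterion, and 3 of the 6 groups share 1 library. The 6 of 38 therefore cannot be set against that rate. RAS tumor 2 was apart for 3 genes, each with 8 reads and 13.1 CPM: Epha4 (the other RAS tumors 0 to 3.40 CPM), Epha5 (0 to 3.27 CPM) and Robo2 (0 to 3.27 CPM). RAS tumor 1 was apart for Epha1, at 142 CPM (87 reads) against 49.2 to 76.2 CPM. PDGFB tumor 2 was apart for Plxna2, at 77.2 CPM (47 reads) against 44.0 to 51.3 CPM. PDGFB tumor 5 was apart for Sema3f, at 1.65 CPM, which is 1 read where the other PDGFB tumors had none.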

How the results depend on the processing

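Of 33 calls among the 19 members, 27 held under every alternative that could be run and none reversed. Epha5 between the tumors was lost only at an adjusted p under 0.01. The other 5, each lost without at least 1 library, were Ntn3, Plxnb2 and Unc5b in PDGFB tumors against normal brain and Sema3d in RAS tumors against normal brain and between the tumors. Filters that test more members gave more calls: at the looser filter and with no filter, 8 and 8 members were higher and 11 and 13 lower in PDGFB tumors against normal brain, 11 and 13 were lower in RAS tumors against normal brain, and between the tumors 8 and 8 were higher and 12 and 12 lower in PDGFB. At the looser filter 14 were higher in RAS tumors against normal brain. At an adjusted p under 0.01, 1 was higher in PDGFB than in RAS tumors. Leaving out 1 library gave 4 to 5 higher and 4 to 6 lower (PDGFB against normal), 8 to 9 and 4 to 4 (RAS against normal), and 2 to 4 and 6 to 6 (PDGFB against RAS).

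Changes of sign were seen in values that were not called, and the cause was not tested. By limma-voom, PDGFB against normal was -0.10 for Epha1, -0.0186 for Sema3f and -0.0131 for Sema6d on the log2 scale, and by library totals Sema6a between the tumors was 0.0240. With 1 library left out, PDGFB against normal ranged from -0.14 to 0.28 for Epha1, -0.0690 to 0.29 for Plxna2, -0.13 to 0.77 for Plxnd1 and -0.0893 to 0.34 for Sema6d, RAS against normal from -0.54 to 0.19 for Sema7a, and PDGFB against RAS from -0.30 to 0.0279 for Sema6a.

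The tumor groups share replicate numbers but were not paired by them: deviations of same-numbered libraries correlated at -0.13 to 0.14, and 1 PDGFB library correlated best with its own number. With the replicate number as a block, 2 members were higher and 6 lower in PDGFB than in RAS tumors, and Sema3d was the call lost (log2 fold change 1.46, adjusted p = 0.0768). Depth limits every value: 3 reads, the limit that a count of 0 allows, are 4.67 to 5.67 CPM in a single library.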
